A study of Mus musculus with 15 samples.

Results

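The DNA replication machinery was followed through 44 mouse genes, chosen by name for their roles in starting replication, unwinding and copying DNA, and supplying its building blocks. All 44 were among the 11551 genes listed in at least 1 of the 4 deposited expression tables. RNA sequencing had been done on 15 libraries of mouse Abelson pre-B cells, early B-lineage cells made immortal with the v-Abl oncogene, in 5 groups of 3 libraries. Every group had been given imatinib, an inhibitor of the Abl kinase, for 48 h. The Rag -/- cells, which cannot start V(D)J recombination, carried a construct named SPIC_tet in the labels, for the transcription factor SPIC, and gave 3 groups. Rag_SPIC_tet_NoDOX had no doxycycline, Rag_SPIC_tet_DOX had doxycycline, and Rag_SPIC_tet_DOX_shBCLAF1 had doxycycline and an shRNA labelled shBCLAF1. The Art -/- cells lack Artemis, the nuclease that opens the hairpin ends left by RAG cutting, and gave the groups Art, with no shRNA, and Art_shBCLAF1. The labels of both Art groups name no SPIC construct and no doxycycline, no group is named as having a control hairpin, and no group lacks imatinib or has both genes intact. The 3 Rag -/- groups are called NoDOX, DOX and DOX_shBCLAF1 from here on. The labels do not say whether the 3 libraries of a group came from separate cultures or how many clones a line holds, so the p-values below reflect the spread among these libraries alone, which may be technical.

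DNA replication is prepared in G1, when the origin recognition complex (ORC), CDC6 and CDT1 load the ring of MCM proteins onto DNA in an inactive form. In S phase CDC45 and the GINS complex join the ring and turn it into the active helicase, helped by TICRR and MCM10. Polymerase alpha with primase lays down primers, polymerase epsilon extends the leading strand and polymerase delta the lagging strand. The clamp PCNA, loaded by replication factor C (RFC), holds the polymerases on DNA, and replication protein A (RPA) covers the single strands. FEN1 and DNA ligase 1 join the lagging-strand fragments. Many of these genes are textbook targets of the E2F transcription factors, whose activity is restrained by RB family proteins in resting cells. Cycling pre-B cells express them strongly, and their levels fall when such cells leave the cycle.

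Promoter sequence is shown because the genes are known E2F targets and because most of them differed in 1 direction between groups. RefSeq promoters on GRCm38.p6, from 250 bases before to 50 bases after each start, matched 37 of the 44 genes. The submitters' processing notes name mm9 for the expression files, so these coordinates belong to the sequence table and not to the files. The 4 spellings searched on both strands were TTTCCCGC, TTTCGCGC, TTTGCCGC and TTTGGCGC. At least 1 of them stood in the promoters of 15 of the 37 genes (40.5%), compared with 2.6% of all 27025 genes with a promoter entry. The share was 4.74% among the 9102 genes of the deposited tables that had an entry. A further element, CCAAT, was in the promoters of 24 of the 37 genes (64.9%), against 41.1% of all genes. The 4 stretches below, 80 bases each and written 5′ to 3′ on the gene's strand, come from a licensing gene, a pair of helicase ring genes and a polymerase gene. Capitals mark the matches, and in Mcm5 and Mcm6 a pair of matches on opposite strands overlap within the capitals.
Mcm5, chr8:75109319-75109398, plus strand: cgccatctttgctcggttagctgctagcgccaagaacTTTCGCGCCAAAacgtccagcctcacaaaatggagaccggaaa
Mcm6, chr1:128359776-128359855, minus strand: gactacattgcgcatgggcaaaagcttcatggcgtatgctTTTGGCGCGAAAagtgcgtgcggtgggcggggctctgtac
Cdc6, chr11:98907982-98908061, plus strand: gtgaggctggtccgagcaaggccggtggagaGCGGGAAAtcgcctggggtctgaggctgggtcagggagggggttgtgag
Pola1, chrX:93632256-93632335, minus strand: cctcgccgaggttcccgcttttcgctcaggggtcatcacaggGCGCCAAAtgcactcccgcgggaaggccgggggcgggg
The first matching base lay 153 bases before the start in Mcm5, 110 in Mcm6, and 138 in both Cdc6 and Pola1. A match describes letters only and does not show that a factor binds there.

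Expression is given as the authors' deposited log2 CPM, read counts divided by library size and put on a log2 scale. These values are not scaled by transcript length, so each gene is compared with itself across libraries. The effective library sizes implied by the values at 0 reads were 5.81 M to 27.1 M, which need not equal the number of reads sequenced. The lowest belonged to Art replicate 3, which also had 145 of the 11551 genes at 0 reads, against 19 to 56 in the other libraries. Among the 44 genes the fewest reads were 14, for Fen1 in Art replicate 3, and the most were 12509, for Mcm6 in Art_shBCLAF1 replicate 1. Bclaf1 mRNA did not fall with the shBCLAF1 label. It averaged 8.04 ± 0.06 log2 CPM in DOX_shBCLAF1 against 7.73 ± 0.04 in DOX, and 8.32 ± 0.03 in Art_shBCLAF1 against 7.32 ± 0.79 in Art (SD, n = 3). These groups are therefore called the libraries labelled shBCLAF1. Spic averaged 0.82 ± 0.62 in NoDOX, 4.21 ± 0.44 in DOX, 7.46 ± 0.04 in DOX_shBCLAF1 and 0.44 ± 0.36 in Art (SD, n = 3). It averaged 4.54 ± 0.24 in Art_shBCLAF1 (SD, n = 3), whose labels name no SPIC construct. All 12 pre-B markers on a list of B-lineage genes were measured, and their summed level was 4786 to 5251 CPM in Art_shBCLAF1, 11119 to 12709 in Art and 6352 to 9624 in the Rag -/- groups. Of 10 myeloid markers, 6 were measured, and their sum was 684 to 912 CPM in Art, 202 to 309 in NoDOX and DOX, and 38.5 to 53.9 in the libraries labelled shBCLAF1. The only stroma marker measured of 6, Vim, which B-lineage cells can also express, was at 318 to 800 CPM in Art, 534 to 542 in NoDOX, 637 to 827 in DOX and 893 to 1050 in the libraries labelled shBCLAF1. The only T and NK marker measured of 8, Lck, was at 80.0 to 85.1 CPM in Art, 5.15 to 6.16 in Art_shBCLAF1 and 20.3 to 33.5 in the Rag -/- groups. The 5 plasma cell markers summed to 424 to 674 CPM over all libraries, and 3 of 7 erythroid and megakaryocyte markers to 5.07 to 13.8. The part of these marker differences in the results on replication genes was not tested.

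The replication genes stood lowest in Art and highest in Art_shBCLAF1. Of the 44 genes, 38 had their lowest group mean in Art and 42 their highest in Art_shBCLAF1. For 33 of the 44 the means ran upward from Art through NoDOX, DOX and DOX_shBCLAF1 to Art_shBCLAF1. With Art replicate 3 left out, 41 genes were lowest in Art and 35 had means in that order. No share over all genes was taken for these counts of group means. All 3 Art_shBCLAF1 libraries lay above all 12 other libraries for 38 of the 44 genes, a pattern seen in 13.5% of the 11551 genes. In these bulk libraries, fewer cells that express the genes and less RNA per cell cannot be told apart.

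**Figure D1:**
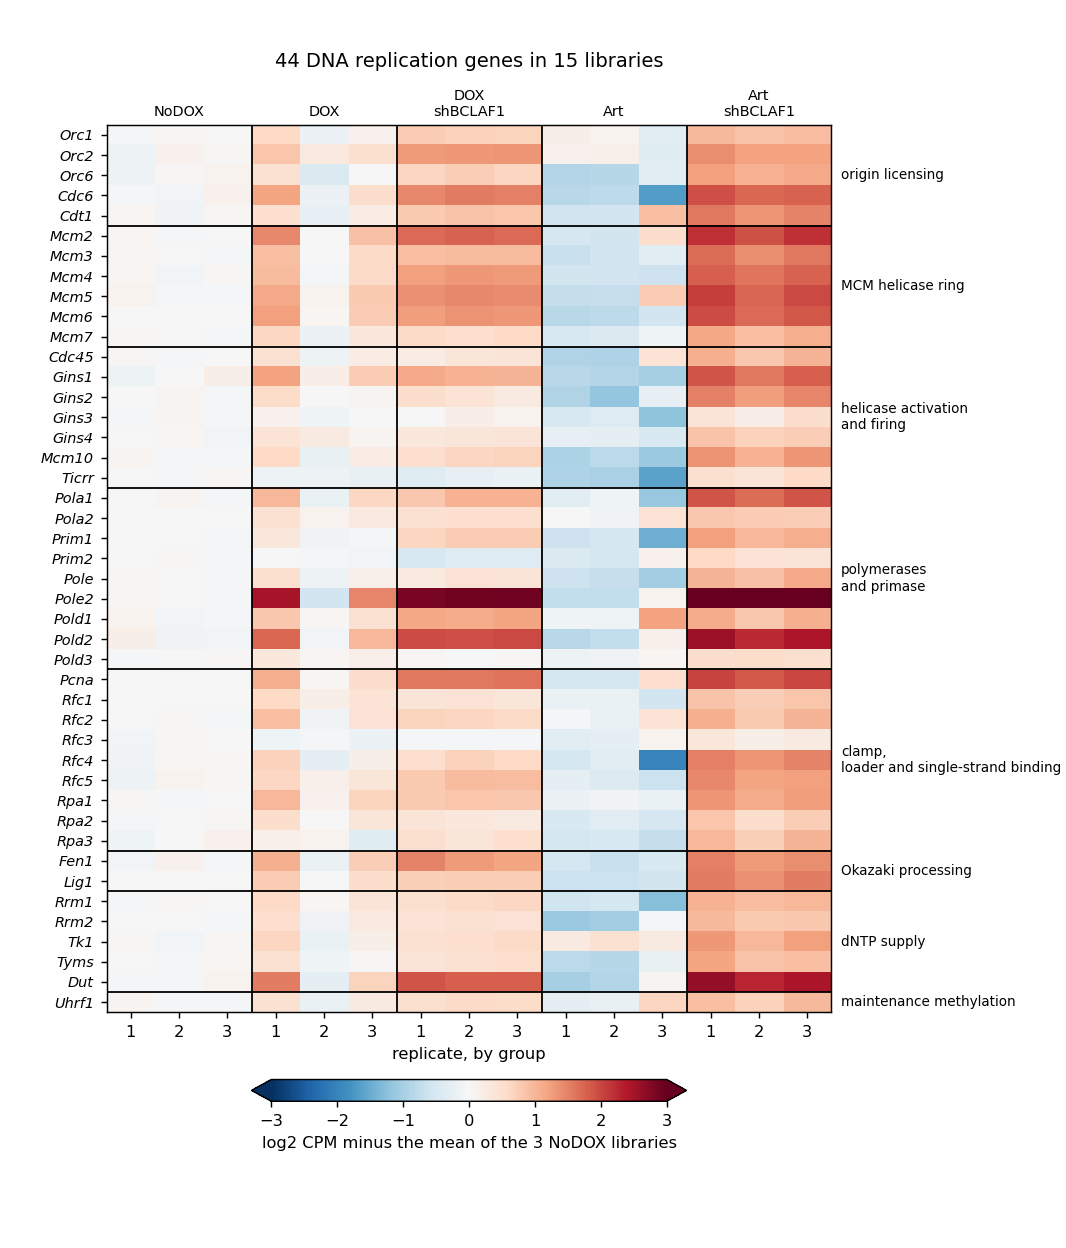
Log2 CPM of each of the 44 replication genes (rows, grouped by role) in each of the 15 libraries (columns), as the difference from the gene's mean in the 3 NoDOX libraries. The colour scale ends at 3 in either direction, which Pole2 exceeds in Art_shBCLAF1; the Art_shBCLAF1 columns are the highest, the Art columns the lowest, and the 3 DOX columns differ among themselves.

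The spread within a group depended on the group. The median SD over the 44 genes was 0.06 in NoDOX, 0.05 in DOX_shBCLAF1 and 0.13 in Art_shBCLAF1, on the log2 scale with n = 3. It was 0.39 in DOX and 0.31 in Art, and 0.04 in Art without replicate 3. The DOX libraries differed as a block: replicate 1 was the highest, replicate 3 was between and replicate 2 was the lowest for 39 of the 44 genes, all but Gins4, Prim2, Rfc3, Rpa3 and Ticrr. Replicate 1 was above all NoDOX libraries for 41 genes, replicate 3 for 36 and replicate 2 for 11. No share over all genes was taken for that order or for these counts. The median difference of the 44 genes from the NoDOX mean was 0.62, -0.07 and 0.34 in DOX replicates 1, 2 and 3. Over all 11551 genes it was -0.01 in each. DOX replicate 1 differed from the DOX_shBCLAF1 mean by a median of only -0.01. In Art replicate 3 the genes scattered in both directions, from 1.56 below (Rfc4) to 1.48 above the mean of the other Art libraries. That deviation correlated across the 44 genes with transcript GC content (Pearson r 0.52, Spearman rho 0.46). The same correlation over 11521 genes was 0.62 and 0.64, and genes of 1 library share its depth and composition, so these are descriptions. The part of GC content and depth in the results that rest on Art replicate 3 was not tested.

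Limma was fitted to all 11551 genes in 7 comparisons, and a gene was called changed at a Benjamini-Hochberg adjusted p below 0.05, two-sided. The authors' deposited tables list genes with an adjusted p up to 0.0499, so shares of all genes are over genes that had passed in at least 1 of the authors' comparisons. Art_shBCLAF1 against Art gave the broadest rise. It called 42 of the 44 genes higher and none lower, where 49.0% of all genes were called, 25.0% higher and 24.1% lower. The median difference of the 44 was 1.69 on the log2 scale, against 0.05 over all genes. Their groups did not overlap, with Art_shBCLAF1 higher, for 43 genes, against 33.9% of all genes. The difference was past 2-fold for 35 genes and past 4-fold for 16, counts for which no share over all genes was taken. Rfc3 and Pold1, named because they were the only genes not called, differed by 0.43 ± 0.15 and 0.66 ± 0.38 (log2, SE; adjusted p 0.054 and 0.19, 3 against 3 libraries). Without Art replicate 3 all 44 were called higher, where 40.6% of all genes were. When each library was centred on its median gene, 38 of the 44 were called higher, and the share of all called genes that were higher went from 50.9% to 37.5%.

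The DOX_shBCLAF1 libraries lay close together and were above NoDOX for most of the genes. Of the 44 genes, 39 were higher and 2 lower, where 79.7% of all genes were called, 41.0% higher and 38.7% lower. The median was 0.65, against 0.02 over all genes. Past 2-fold higher were 13 genes, a count for which no share over all genes was taken. The 2 genes that fell were Ticrr and Prim2. The groups did not overlap for 39 genes with DOX_shBCLAF1 higher (41.8% of all genes) and for 2 with it lower (39.3%). The genes that were not called were Gins3, Pold3 and Rfc3, at 0.11, 0.04 and -0.05 on the log2 scale. With median centring 39 of the 44 were higher and 4 lower, and the share of all called genes that were higher went from 51.5% to 41.1%. These groups differ in both doxycycline and the hairpin label, which cannot be told apart in this comparison.

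Against DOX the same DOX_shBCLAF1 libraries gave 13 genes higher and 1 lower, where 53.6% of all genes were called, 28.5% higher and 25.1% lower. That share of the 44 genes called higher is close to the share of all genes, and the median was 0.38 against 0.05 over all genes. The groups did not overlap for 19 genes with DOX_shBCLAF1 higher (35.5% of all genes) and for Prim2 with it lower (30.6%). The count depended on single libraries of both groups. Without DOX replicate 1, 34 genes were higher and 1 lower (36.1% of all genes higher), while without DOX replicate 3, or without any 1 of the DOX_shBCLAF1 libraries, 4 or 5 were called in all. The median was 0.58 without DOX replicate 1 and 0.17 without DOX replicate 2. By role, the called genes with the largest and smallest rise were Cdc6 and Orc6 in licensing, at 0.99 ± 0.31 and 0.67 ± 0.21 (log2, SE), and Mcm2 and Mcm5 in the ring, at 0.96 ± 0.33 and 0.74 ± 0.24. Pcna and Rpa3, the clamp and the smallest RPA subunit, rose by 1.06 ± 0.24 and 0.48 ± 0.15, the polymerase gene Pold1 by 0.72 ± 0.18 and the dUTPase gene Dut by 1.19 ± 0.41. The adjusted p-values of these 8 genes were 0.011 to 0.049. Of these genes and Prim2, only Pcna and Prim2 stayed called without each library in turn, and the other 7 were called in 2 of 6 such fits.

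DOX against NoDOX gave no call among the 44 genes with limma, where 11.8% of all genes were called, 3.16% higher and 8.67% lower. Both groups carried the SPIC_tet construct and Spic mRNA was higher in DOX, so doxycycline and SPIC cannot be told apart. An unadjusted limma p below 0.05 was found for 15 of the 44 genes and for 3953 of all 11551. The median of the 44 was 0.29, against 0.00 over all genes, and it was 0.18 without DOX replicate 1 and 0.46 without DOX replicate 2. The DOX libraries lay wholly above NoDOX for 11 genes, Gins1, Gins4, Mcm6, Orc2, Pcna, Pola2, Pold3, Rfc1, Rfc5, Rpa1 and Rrm1 (18.0% of all genes), and wholly below for Ticrr (22.7%). Without DOX replicate 2, 31 of the 44 were called higher and none lower, where 20.0% of all genes were higher.

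Art against NoDOX called 7 of the 44 genes lower and none higher, where 5.14% of all genes were called, 2.56% lower and 2.58% higher. The median was -0.48, against -0.03 over all genes. Art lay wholly below NoDOX for 26 genes (19.4% of all genes) and wholly above for 1, Tk1 (18.4%). The 26 were Cdc6 and Orc6 in licensing, Mcm3, Mcm4, Mcm6 and Mcm7 in the ring, all helicase activation genes but Cdc45, and Pola1, Pole and Prim1 among polymerases. The others were Rfc1, Rfc4, Rfc5, the 3 RPA genes, Fen1, Lig1, Rrm1, Rrm2 and Tyms. The count changed with the libraries used. Without Art replicate 3, 36 were lower and 1 was higher, where 24.2% of all genes were lower. Without any 1 of the other libraries none of the 44 was called. In those fits 15 to 17 of the 44 had an unadjusted limma p below 0.05, as did 1493 to 2303 of all 11551 genes. These groups differ in line and in the SPIC construct.

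**Figure D2:**
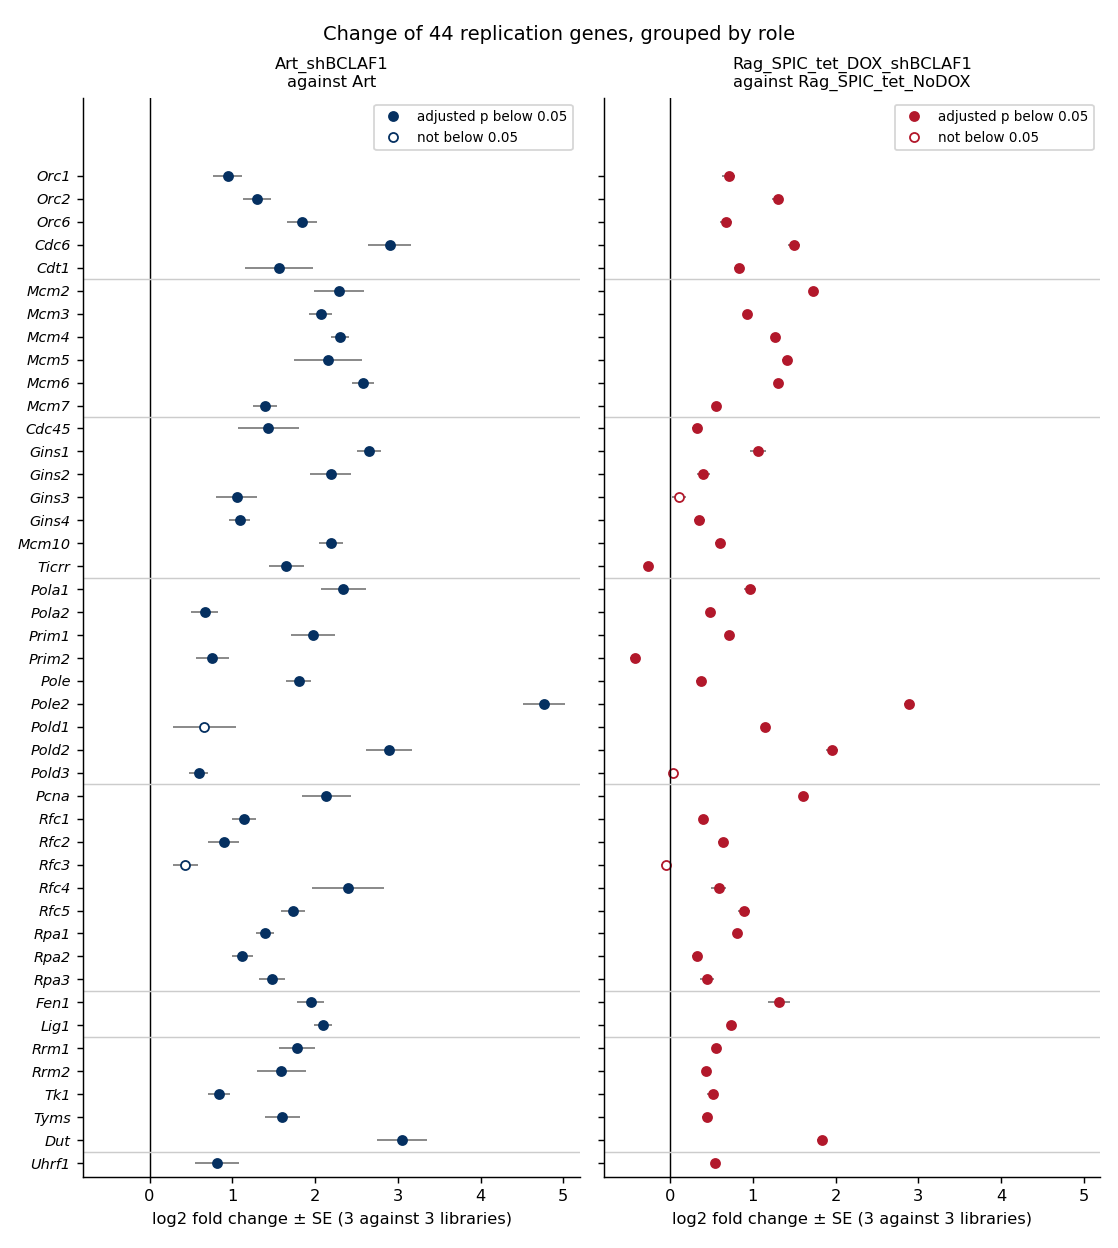
Log2 difference of each of the 44 genes (rows, by role) in Art_shBCLAF1 against Art (left) and DOX_shBCLAF1 against NoDOX (right), with the standard error of the limma fit as bars and filled points for an adjusted p below 0.05. All 44 points on the left lie above 0, with Pole2 the highest at 4.76, and on the right Ticrr and Prim2 are the filled points below 0.

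The origin licensing genes rose in both groups of libraries labelled shBCLAF1, 5 of 5 against Art and 5 of 5 against NoDOX. The medians were 1.56 and 0.83. Counts by role, here and below, stand beside 25.0% of all genes called higher against Art and 41.0% against NoDOX. The shares of all genes called lower were 24.1% and 38.7%. Cdc6, the factor that helps ORC load the MCM ring, measured 4.03, 3.98 and 4.21 log2 CPM in NoDOX, 5.25, 3.91 and 4.61 in DOX, 5.51, 5.63 and 5.59 in DOX_shBCLAF1, 3.25, 3.28 and 2.39 in Art, and 6.0, 5.79 and 5.84 in Art_shBCLAF1. The Art libraries were all below and the libraries labelled shBCLAF1 all above every other library, and DOX overlapped NoDOX. The rise was 2.90 ± 0.26 against Art (log2, SE; 7.47-fold, adjusted p 0.00043) and 1.5 ± 0.07 against NoDOX (2.83-fold, adjusted p 4.8e-12). Cdc6 was also called higher in DOX_shBCLAF1 against DOX (0.99 ± 0.31, adjusted p 0.035), and that call ended without most single libraries (adjusted p up to 0.097). Orc1, the largest ORC subunit, had the smallest licensing rise against Art, 0.94 ± 0.17 (adjusted p 0.0054). Orc6, another ORC subunit, had the smallest against NoDOX, 0.68 ± 0.07 (adjusted p 1.2e-07).

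All 6 genes of the MCM ring, the motor of the helicase, rose in both comparisons, with medians of 2.22 against Art and 1.29 against NoDOX. Mcm6, whose promoter stretch is printed above, measured 7.12, 7.14 and 7.11 in NoDOX, 8.36, 7.19 and 7.88 in DOX, 8.37, 8.47 and 8.44 in DOX_shBCLAF1, 6.28, 6.34 and 6.55 in Art, and 9.09, 8.83 and 8.99 in Art_shBCLAF1. The only libraries of different groups that came close were DOX replicate 2 to NoDOX and DOX replicate 1 to DOX_shBCLAF1. Mcm6 rose by 2.58 ± 0.13 against Art (5.96-fold, adjusted p 8.3e-05), the most in the ring, and Mcm7 the least, by 1.39 ± 0.15 (adjusted p 0.00068). Against NoDOX the extremes were Mcm2, at 1.72 ± 0.05 (adjusted p 2.7e-15), and Mcm7, at 0.56 ± 0.05 (adjusted p 4.2e-09). Mcm2 measured 6.59, 6.48 and 6.53 in NoDOX, 7.98, 6.52 and 7.40 in DOX, 8.22, 8.30 and 8.24 in DOX_shBCLAF1, 6.03, 5.97 and 7.05 in Art, and 8.73, 8.45 and 8.72 in Art_shBCLAF1. Art replicate 3 was the only Art library above the NoDOX libraries for Mcm2. In Art against NoDOX, Mcm6 fell by 0.73 ± 0.11 (adjusted p 0.025) and Mcm4 by 0.57 ± 0.10 (adjusted p 0.031). Both calls ended when any 1 library other than Art replicate 3 was left out, with adjusted p up to 0.16 and 0.21.

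The genes that convert the ring into a working helicase split between the comparisons. Against Art, 7 of 7 rose, with a median of 1.65, while against NoDOX 5 rose and Ticrr fell, with a median of 0.35. Gins1, a GINS subunit, measured 2.97, 3.11 and 3.31 in NoDOX, 4.34, 3.34 and 3.89 in DOX, 4.27, 4.17 and 4.15 in DOX_shBCLAF1, 2.30, 2.24 and 2.13 in Art, and 5.01, 4.72 and 4.92 in Art_shBCLAF1. Art was wholly below and Art_shBCLAF1 wholly above all other groups. Its rise was 2.66 ± 0.15 against Art (adjusted p 0.00011) and 1.07 ± 0.10 against NoDOX (adjusted p 2.2e-08). Gins3 had the smallest rise of this role against Art, 1.05 ± 0.25 (adjusted p 0.014), and its call ended in 2 of the 6 fits that left out a library (adjusted p up to 0.061).

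Ticrr, which carries the S-phase kinase signal to the origin, did not follow the other genes in the Rag -/- groups. It measured 6.62, 6.59 and 6.64 in NoDOX, 6.45, 6.47 and 6.40 in DOX, 6.25, 6.37 and 6.42 in DOX_shBCLAF1, 5.69, 5.64 and 5.0 in Art, and 7.1, 7.0 and 7.2 in Art_shBCLAF1. Both doxycycline groups were below NoDOX, while Art_shBCLAF1 was above every other library and Art below. The fall in DOX_shBCLAF1 against NoDOX was 0.27 ± 0.05 on the log2 scale (adjusted p 0.0002), and the call ended when all 15 libraries shared 1 estimate of the spread (adjusted p 0.14). In Art against NoDOX it fell by 1.17 ± 0.20 (adjusted p 0.031), and Gins1 by 0.90 ± 0.16 (adjusted p 0.03). Both of these calls ended when any 1 library other than Art replicate 3 was left out (adjusted p up to 0.17 and 0.19).

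Among the 9 polymerase and primase genes, 8 rose against Art (median 1.80), and 7 rose and 1 fell against NoDOX (median 0.72). Pole2, the second subunit of polymerase epsilon, had the largest difference of all 44 genes in both. It measured 4.50, 4.42 and 4.41 in NoDOX, 6.92, 3.87 and 5.91 in DOX, 7.28, 7.34 and 7.36 in DOX_shBCLAF1, 3.70, 3.72 and 4.54 in Art, and 8.90, 8.57 and 8.78 in Art_shBCLAF1. The libraries labelled shBCLAF1 lay above all others, and the DOX libraries spanned from below NoDOX to near DOX_shBCLAF1. Its rise was 4.76 ± 0.25 against Art (27.1-fold, adjusted p 0.0001) and 2.88 ± 0.05 against NoDOX (7.39-fold, adjusted p 3e-17). Pole, the catalytic subunit of the same polymerase, differed by 1.80 against Art and rose by only 0.37 ± 0.05 against NoDOX (adjusted p 3.5e-06). In Art against NoDOX Pole fell by 0.79 ± 0.14 (adjusted p 0.032), a call that ended when any 1 library other than Art replicate 3 was left out (adjusted p up to 0.18).

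Polymerase delta subunits were also uneven. Against Art, Pold2, an accessory subunit, differed by 2.89 and Pold3, another, rose by 0.59 ± 0.11 (adjusted p 0.006, and 0.054 with median centring). Against NoDOX they differed by 1.96 and 0.04. Pold1, the catalytic subunit, measured 7.04, 6.86 and 6.89 in NoDOX, 7.73, 6.96 and 7.39 in DOX, 8.09, 8.06 and 8.10 in DOX_shBCLAF1, 6.81, 6.80 and 8.15 in Art, and 8.03, 7.73 and 7.99 in Art_shBCLAF1. Art replicate 3 stood above all libraries labelled shBCLAF1, and the other Art libraries were below NoDOX. Prim2, the large primase subunit, was the polymerase or primase gene called lower in DOX_shBCLAF1, both against NoDOX and against DOX. It measured 5.61, 5.63 and 5.54 in NoDOX, 5.60, 5.56 and 5.52 in DOX, 5.11, 5.2 and 5.22 in DOX_shBCLAF1, 5.15, 5.07 and 5.73 in Art, and 6.20, 6.04 and 5.99 in Art_shBCLAF1. DOX overlapped NoDOX and DOX_shBCLAF1 was below both. It fell by 0.42 ± 0.06 against NoDOX (adjusted p 4.2e-06) and by 0.38 ± 0.06 against DOX (adjusted p 0.0039), with the latter call kept without each library in turn (adjusted p up to 0.023).

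The clamp, its loader and the RPA genes rose for 8 of 9 members in both comparisons, with medians of 1.39 against Art and 0.59 against NoDOX. Pcna, the clamp, measured 5.67, 5.69 and 5.65 in NoDOX, 6.72, 5.70 and 6.20 in DOX, 7.25, 7.26 and 7.30 in DOX_shBCLAF1, 5.15, 5.14 and 6.18 in Art, and 7.7, 7.5 and 7.67 in Art_shBCLAF1. The DOX libraries were all above NoDOX, one of them barely, and all below DOX_shBCLAF1. Pcna rose by 1.60 ± 0.05 against NoDOX (adjusted p 7e-15) and by 1.06 ± 0.24 against DOX (adjusted p 0.011). The mouse genome holds a Pcna pseudogene, and the sources used here do not say how reads that fit both were counted.

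Rfc4, a subunit of the clamp loader, measured 3.39, 3.57 and 3.54 in NoDOX, 4.19, 3.24 and 3.67 in DOX, 4.0, 4.19 and 4.09 in DOX_shBCLAF1, 2.97, 3.15 and 1.51 in Art, and 5.01, 4.82 and 4.99 in Art_shBCLAF1. It rose by 2.40 ± 0.43 against Art (adjusted p 0.0051), and here Art replicate 3 was far below the other Art libraries. Rfc3 of the same loader measured 6.0, 6.15 and 6.1 in NoDOX, 5.94, 6.06 and 5.91 in DOX, 6.04, 6.03 and 6.03 in DOX_shBCLAF1, 5.76, 5.79 and 6.18 in Art, and 6.42, 6.25 and 6.35 in Art_shBCLAF1. The 3 Rag -/- groups overlapped for Rfc3, and Art_shBCLAF1 was above them all. Among the called genes of this role, Rfc2 had the smallest rise against Art, 0.90 ± 0.19 (adjusted p 0.009). Rpa2, the middle RPA subunit, had the smallest against NoDOX, 0.32 ± 0.05 (adjusted p 3.1e-05).

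Both Okazaki fragment genes rose. Lig1, the ligase that seals the fragments, measured 6.74, 6.71 and 6.71 in NoDOX, 7.49, 6.70 and 7.24 in DOX, 7.44, 7.45 and 7.46 in DOX_shBCLAF1, 6.07, 6.08 and 6.16 in Art, and 8.25, 8.08 and 8.26 in Art_shBCLAF1. Its Art libraries, replicate 3 included, were together and below all others. Lig1 rose by 2.10 ± 0.11 against Art (adjusted p 9.1e-05) and by 0.73 ± 0.04 against NoDOX (adjusted p 8.5e-11), and fell by 0.61 ± 0.10 in Art against NoDOX (adjusted p 0.025). That last call too was kept only without Art replicate 3 (adjusted p up to 0.17 without another library). Fen1, the flap nuclease, rose by 1.95 ± 0.16 against Art (adjusted p 0.00033) and 1.32 ± 0.13 against NoDOX (adjusted p 4.9e-08), with the fewest reads of the 44 genes.

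The 5 genes of deoxynucleotide supply rose in both comparisons, with medians of 1.61 against Art and 0.51 against NoDOX. Dut, which removes dUTP so that uracil is not built into DNA, measured 5.02, 5.01 and 5.19 in NoDOX, 6.60, 4.79 and 5.74 in DOX, 6.97, 6.87 and 6.87 in DOX_shBCLAF1, 4.08, 4.20 and 5.16 in Art, and 7.72, 7.36 and 7.51 in Art_shBCLAF1. The libraries labelled shBCLAF1 were above all others, and Art replicate 3 was within the NoDOX range. The rise was 3.05 ± 0.30 against Art (8.29-fold, adjusted p 0.00055) and 1.83 ± 0.06 against NoDOX (3.56-fold, adjusted p 2.1e-14). Rrm2, a subunit of ribonucleotide reductase, had the smallest rise against NoDOX, 0.44 ± 0.04 (adjusted p 5.7e-08), and its call ended when all 15 libraries shared 1 estimate of the spread (adjusted p 0.12). Tk1, the thymidine salvage kinase, had the smallest against Art, 0.84 ± 0.13 (adjusted p 0.003). Uhrf1, which guides DNA methylation onto the new strand, rose by 0.54 ± 0.05 against NoDOX (adjusted p 2.6e-08). Its rise of 0.81 ± 0.26 against Art (adjusted p 0.042) was kept in only 1 of the 6 fits that left out a library, with adjusted p up to 0.13, and ended with median centring (adjusted p 0.14).

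**Figure D3:**
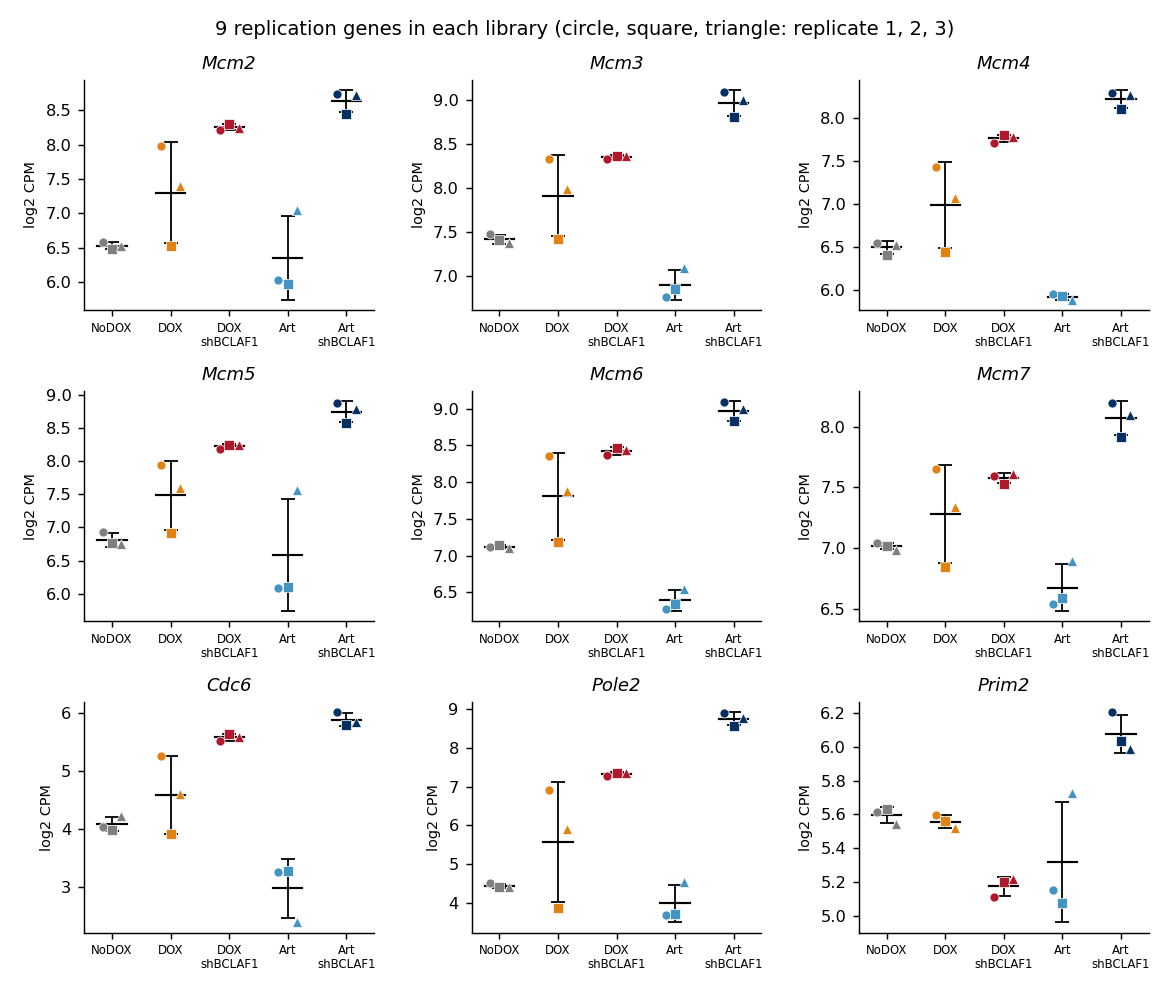
Log2 CPM of the 6 MCM ring genes, Cdc6, Pole2 and Prim2 in each library, by group, with every library as a point, the group mean as a line and 1 SD as bars (n = 3); each panel has its own axis. Pole2 ranges from 3.70 in Art replicate 1 to 8.90 in Art_shBCLAF1 replicate 1, while Prim2 is lower in DOX_shBCLAF1 than in NoDOX and DOX, and Art replicate 3 stands apart from the other Art libraries for several genes.

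Subunits of the same complex differed in how far apart their changes were. Against Art, the RPA subunits lay between 1.12 (Rpa2) and 1.48 (Rpa3) on the log2 scale, and the ribonucleotide reductase subunits between 1.59 (Rrm2) and 1.78 (Rrm1). The MCM ring spanned 1.19 from its lowest to its highest gene, GINS 1.60, the RFC genes 1.97 and polymerase delta 2.30. Polymerase epsilon spanned 2.96 between Pole and Pole2. In the polymerase alpha and primase complex the lowest was Pola2, at 0.67, and the highest Pola1, whose promoter stretch is printed above, at 2.34. Against NoDOX, where no library is shared with the comparison to Art, polymerase epsilon again spanned the most, 2.51, and ribonucleotide reductase the least, 0.12.

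Genes with a larger difference in 1 line tended to have a larger one in the other. Across the 44 genes, the differences of Art_shBCLAF1 from Art and of DOX_shBCLAF1 from NoDOX had a Pearson r of 0.77 and a Spearman rho of 0.66. Over all 11551 genes these were 0.70 and 0.64. Without Pole2, r over the other 43 genes was 0.67. The comparisons share no library, but genes of 1 comparison share its libraries, and the values are descriptions. The difference was larger against Art for 43 of the 44 genes, and 12 were past 2-fold in both. For these counts no share over all genes was taken. The genes were also split by the searched promoter spellings. The 15 with a match had a median of 1.56 against Art, with 13 called higher, and the 22 without had 1.69, with 22 called. The 7 with no promoter entry had 1.80, with 7 called. Against NoDOX the medians were 0.83, 0.60 and 0.40 in the same order. There 12 of the 15 were called higher, 21 of the 22 higher and 1 lower, and 6 of the 7 higher and 1 lower. Of all genes, 25.0% were called higher against Art and 41.0% against NoDOX.

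The change with the shBCLAF1 label was tested for a difference between the lines, as the Art_shBCLAF1 against Art difference minus the DOX_shBCLAF1 against DOX difference over 12 libraries. It was larger in the Art line for 32 of the 44 genes and smaller for none, where 31.3% of all genes were called, 14.3% larger and 17.0% smaller. The median was 1.25, against 0.03 over all genes. The called genes were 2 of 5 in licensing, 4 of 6 in the MCM ring, 7 of 7 in helicase activation and 7 of 9 among polymerases. They were 6 of 9 in the clamp, loader and RPA group, 2 of 2 in Okazaki processing, 4 of 5 in deoxynucleotide supply, and not Uhrf1. The lines also differ in SPIC construct and doxycycline, which cannot be told apart from the line in this test. Without Art replicate 3 the count was 40, where 26.6% of all genes were called larger, without DOX replicate 2 it was 38, where 17.6% were, and with any other single library left out it was 27 to 30.

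Art_shBCLAF1 was compared directly with DOX_shBCLAF1 after the values had been seen. By their labels these groups differ in line, SPIC construct and doxycycline, which cannot be told apart in this comparison. Art_shBCLAF1 was higher for 41 of the 44 genes and lower for none. Of all genes 59.7% were called, 28.8% higher and 30.9% lower. The groups did not overlap for 40 genes with Art_shBCLAF1 higher (31.5% of all genes) and for Pold1 with it lower (33.9%). The median was 0.46, against -0.02 over all genes. Pole2 differed the most, by 1.42 ± 0.07 (adjusted p 4.6e-09), and Orc1 was the smallest called difference, 0.21 ± 0.07 (adjusted p 0.021, kept in 2 of the 6 fits that left out a library). Both of these calls ended (adjusted p 0.074 and 0.44) when all 15 libraries shared 1 estimate of the spread, which left 17 genes called. The largest and smallest called differences of the other roles were 0.64 ± 0.06 for Cdt1 in licensing beside Orc1, 0.62 ± 0.06 and 0.38 ± 0.07 for Mcm3 and Mcm2, and 1.01 ± 0.08 and 0.26 ± 0.09 for the GINS genes Gins2 and Gins3. They were 0.29 ± 0.05 for Pola2 beside Pole2, 0.85 ± 0.08 and 0.31 ± 0.06 for the clamp loader genes Rfc4 and Rfc3, and 0.66 ± 0.08 and 0.42 ± 0.06 for Tk1 and Rrm2. Lig1 differed by 0.75 ± 0.05 and Uhrf1 by 0.32 ± 0.06. Of these genes Gins2, Lig1, Mcm3 and Tk1 stayed called in the fit of all 15 libraries, where the others had adjusted p of 0.056 to 0.45, and Gins3 was called in 2 of the 6 fits that left out a library. Orc2, Fen1 and Pold1, the genes not called, differed by -0.03, 0.08 and -0.16.

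Genes around the 44 were read from lists of the same pathway. Of all genes, 25.0% were called higher and 24.1% lower against Art, and 41.0% higher and 38.7% lower against NoDOX. Of 30 other initiation and fork genes, 21 rose and none fell against Art, with a median of 1.21, and 21 rose and 7 fell against NoDOX, with a median of 0.30. Dna2, a nuclease of the lagging strand, had the largest rise in both, 2.57 ± 0.15 and 2.01 ± 0.07, and Pold4, the small polymerase delta subunit, fell the most against NoDOX, by 0.58 ± 0.05. Of 9 genes that assemble chromatin behind the fork, 8 rose in each comparison, led by Hells, a remodelling ATPase, against Art (2.81 ± 0.45) and by Chaf1b, a subunit of chromatin assembly factor 1, against NoDOX (1.37 ± 0.08). Of 10 other nucleotide genes, 5 rose and 1 fell against Art, and 5 rose and 4 fell against NoDOX. Dctd, the dCMP deaminase, rose by 3.37 ± 0.40 and 4.09 ± 0.16. The mitochondrial kinase Tk2 fell by 0.79 ± 0.07 against NoDOX. Of 22 measured E2F, RB and S-phase kinase genes, 13 rose and 1 fell against Art, and 10 rose and 10 fell against NoDOX. Ccne1, cyclin E1, rose by 2.69 ± 0.30 and 1.91 ± 0.10, Cdkn1a, the inhibitor p21, fell by 0.92 ± 0.15 against Art, and Rbl2, an RB family member, fell by 1.15 ± 0.05 against NoDOX.

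Most of the mitotic genes measured rose with the replication genes in Art_shBCLAF1 and fell in DOX_shBCLAF1, where most replication genes were above NoDOX. Of 20 mitotic genes, 16 rose and none fell in Art_shBCLAF1 against Art, with a median of 1.31, from Kif23, a kinesin of cell division (0.58 ± 0.11), to Bub1, a spindle checkpoint kinase (1.92 ± 0.54). Of all genes, 25.0% were called higher and 24.1% lower in that comparison. In DOX_shBCLAF1 against NoDOX, 1 of the 20 rose and 16 fell, with a median of -0.45. Here 41.0% of all genes were called higher and 38.7% lower. Cdk1, the mitotic kinase, rose by 0.20 ± 0.05 and Cenpe, a kinetochore kinesin, fell by 1.08 ± 0.05. When all 15 libraries shared 1 estimate of the spread, 10 of the 20 were called, as were 6105 of all 11551 genes. Against DOX, 15 of the 20 fell and none rose, where 25.1% of all genes were lower and 28.5% higher. In Art against NoDOX, 6 of the 20 fell and none rose, where 2.56% of all genes were lower. Without Art replicate 3, 20 fell, where 24.2% of all genes were lower. The difference of the label effect between the lines was called for 18 of the 20, all larger in Art, with a median of 1.71. Of all genes, 14.3% were called larger in Art and 17.0% smaller. The median over the 20 genes relative to the NoDOX mean was -0.52, -0.39 and -0.46 in the DOX_shBCLAF1 libraries, where the median of the 44 replication genes was 0.64, 0.69 and 0.66. In DOX replicates 1, 2 and 3 the mitotic medians were -0.01, -0.15 and -0.04, beside replication medians of 0.62, -0.07 and 0.34, and replicate 2 was the lowest for both. In the Art_shBCLAF1 libraries the mitotic medians were 0.36, 0.13 and 0.28 and the replication medians 1.27, 1.02 and 1.18. In Art they were -0.87, -0.83 and -1.41 against -0.53, -0.52 and -0.33. CCAAT was in the promoters of 15 of 18 mitotic genes with an entry (83.3%), and one of the E2F spellings in 1 of 18 (5.56%), against 40.5% of the replication genes. Among the other initiation and fork genes, 7 of 24 (29.2%) had an E2F spelling and 9 (37.5%) CCAAT.

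**Figure D4:**
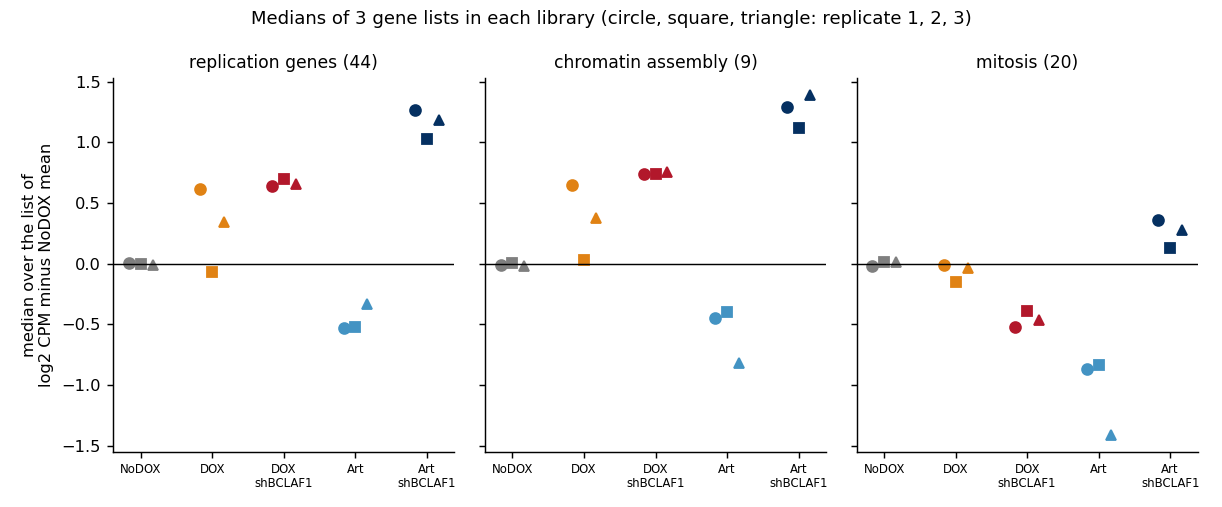
Median log2 difference from the NoDOX mean, per library, for the 44 replication genes, 9 genes of chromatin assembly and 20 mitotic genes. In the DOX_shBCLAF1 libraries the replication genes lie between 0.64 and 0.69 and the mitotic genes between -0.52 and -0.39, while in Art_shBCLAF1 both lie above 0.

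In the authors' deposited table of Art_shBCLAF1 against Art all 44 genes were listed, all higher in Art_shBCLAF1. The authors' deposited table of DOX_shBCLAF1 against DOX listed 40 of them, 38 higher and 2 lower. The authors' deposited table of Art against NoDOX listed 37, 1 higher and 36 lower, and the authors' deposited table of DOX against NoDOX listed 35, 32 higher and 3 lower. The highest adjusted p in any of these 4 deposited tables was 0.0499. Of the 11551 genes in any of them, the tables listed 9784, 9479, 6392 and 7749, in the same order. The 11551 are by construction the genes listed in at least 1 of these tables. These counts therefore cannot show whether being listed was particular to the 44 replication genes. The limma fits used here called 42, 14, 7 and 0 of the 44, in the same order. The reason for the difference from the authors' lists was not tested.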

How the data were processed

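RNA was measured in 15 libraries, in 5 groups of 3. The submitters' processing notes name Subread, featureCounts 1.4.5, edgeR, limma and the build mm9, with no role or order given here. The authors deposited 4 tables of 2 groups compared, each holding log2 CPM for all 15 libraries, a log2 fold change, adjusted p-values and a test statistic (score). The log2 CPM values deposited by the authors were the same wherever tables shared a gene, 152 duplicate rows were merged, and 1 column was matched to its library with 1 character of difference. Values in these tables below 1000 reads came out as whole reads within 0.05. Each table lists only part of the genes, with adjusted p-values up to 0.0499, so all shares are over the 11551 genes in any of them.

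The tests used limma 3.58.1 (R 4.3.3), with a trended variance, on the log2 CPM of the 6 libraries compared, and of 12 libraries for the difference between lines; p-values were adjusted over all genes in each of 7 comparisons. The script was tested on simulated data. Alternatives were 1 fit of all 15 libraries, library weights, no trend, median centring, a minimum mean of 2 log2 CPM, 2 reads added to each count, the replicate block, and leaving out each library. The 44 genes and the lists were chosen with earlier results of these data known. In each comparison the text names, per role, the called gene with the largest and smallest change, those against the direction of most, and, where few are called, those whose groups do not overlap. The comparison of Art_shBCLAF1 with DOX_shBCLAF1, the uncalled genes named and the genes shown only as the extremes of a complex were chosen after the values were seen. Promoter coordinates are on another build than the files and were used for sequence alone.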

Additional observations from a re-analysis of the deposited data

Results flagged for a closer look

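Each result here is a change with the shBCLAF1 label that differed between the lines by a limma test of the difference itself, adjusted over all 11551 genes, with 3 libraries in each of 4 groups. The count was 32 of the 44 replication genes, all larger in the Art line, and 18 of the 20 mitotic genes. Of all genes 31.3% were called, 14.3% larger in the Art line and 17.0% smaller. The differences, on the log2 scale, were 1.92 for Cdc6 and 1.17 for Orc6 in licensing, 1.96 for Mcm6 and 1.09 for Mcm7 in the ring, and 2.32 for Gins1 and 0.95 for Gins3 in helicase activation. They were 3.0 for Pole2 and 0.72 for Pold3 among polymerases, 2.01 for Rfc4 and 1.0 for Rpa3 in the clamp, loader and RPA group, 1.78 for Lig1 and 1.17 for Fen1 in Okazaki processing, and 1.86 for Dut and 1.29 for Tyms in deoxynucleotide supply. The call ended without some libraries for Dut (adjusted p up to 0.066, 4 of 12 fits kept it), Fen1 (up to 0.089, 2 of 12) and Gins3 (up to 0.067, 6 of 12). The other 11 genes named here were called without each library in turn. Pold3 measured 6.35, 6.09 and 6.18 log2 CPM in DOX and 6.09, 6.06 and 6.09 in DOX_shBCLAF1, against 5.89, 5.92 and 6.10 in Art and 6.58, 6.58 and 6.53 in Art_shBCLAF1. Line, SPIC construct and doxycycline cannot be told apart in this test.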

How the results depend on the processing

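For the 44 genes in Art against NoDOX, 7 were called; 1 fit of all 15 libraries called 19, library weights 39, the replicate block 0, and leaving out a library 0 to 37. In DOX against NoDOX, 0 were called; the fit of all 15 called 4, library weights 36, median centring 1, and leaving out a library 0 to 31. In DOX_shBCLAF1 against DOX, 14 were called; library weights called 41, no trend 9, and leaving out a library 4 to 35. In Art_shBCLAF1 against DOX_shBCLAF1, 41 were called and the fit of all 15 called 17. The counts in Art_shBCLAF1 against Art (36 to 44), DOX_shBCLAF1 against NoDOX (36 to 43) and the difference between lines (27 to 44) stayed within 1.5 times under every alternative. Over all genes, calls in Art against NoDOX were 594, with 1957 in the fit of all 15, 6547 with library weights, 0 with the replicate block and 0 to 5473 without a library. In DOX against NoDOX they were 1367, with 8589 under library weights, 150 with the block and 12 to 4569 without a library. Library weights gave 10078 against 6186 in DOX_shBCLAF1 against DOX, 9839 against 5664 in Art_shBCLAF1 against Art and 9159 against 3621 in the difference between lines. Leaving out a library gave 3945 to 7576, 3740 to 9252 and 2674 to 6286 in the same order. The fit of all 15 gave 6105 against 9206 in DOX_shBCLAF1 against NoDOX and 2614 against 6896 in Art_shBCLAF1 against DOX_shBCLAF1. Same-numbered libraries correlated at -0.23 to 0.20 in their deviations from the group means, so the numbers were not taken as pairs, and the replicate block changed no other count by more than 1.5 times. Median centring moved the median of all genes from 0.05 to -0.18 in Art_shBCLAF1 against Art and from 0.02 to -0.13 in DOX_shBCLAF1 against NoDOX; the medians of the 44 became 1.47 and 0.50. In the difference between lines it moved from 0.03 to -0.10. Direction was checked for the called genes named by role and the uncalled genes named, with none checked in DOX against NoDOX. Among these it turned only for genes that were not called. Gins3 and Pold3 in DOX_shBCLAF1 against NoDOX became -0.045 and -0.11 under median centring. Orc2 in Art_shBCLAF1 against DOX_shBCLAF1 ranged from -0.087 to 0.0033 without a library (0.00079 without another). Over all 44 genes, negative differences in DOX against NoDOX went from 4 to 13 without DOX replicate 1. In DOX_shBCLAF1 against DOX they went from 3 to 8 without DOX replicate 2. Positive differences in Art against NoDOX went from 5 to 8 without Art replicate 2. Of the other values of the checked genes, 1006 kept their side of the threshold, 129 lost it and 11 gained it. For related lists the number of called genes was compared. It stayed within 1.5 times in 392 cases, was lower by more in 57 and higher by more in 36. The cause was not tested. Art replicate 3 had the smallest effective library size, 5.81 M, and what its depth limits was not tested.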
